A study of Mus musculus with 6 samples.

Results

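The genes described here are 9 surface and granule genes by which macrophages and other white blood cells are commonly recognised: Adgre1, Adgre5, Ptprc, Cd48 and Cd53 at the cell surface, and Cd68, Mpeg1, Lyz1 and Lyz2 in lysosomes and granules. They are 9 of 54532 genes in the expression tables, and 8 of them are among the 10843 whose mean reached 1 FPKM (fragments per kilobase of exon and scaled to the mapped fragments of a library) over all libraries. The set was selected on measured values of these same libraries, so the differences and counts below describe its members, and where a member is said to pass a threshold this is no independent test.

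Messenger RNA was sequenced from bone marrow-derived macrophages, cultured from the marrow of WT mice or of mice deficient in 4-1BBL, a TNF family ligand whose gene is Tnfsf9. The cells of both groups had been immortalised with retroviruses encoding v-raf and v-myc, and both had received IL-4, the cytokine of alternative macrophage activation, at 10 ng/ml for 24 hours. There were 3 libraries labelled WT and 3 labelled 4-1BBL KO, and the study asked how 4-1BBL bears on anti-inflammatory responses and metabolism. The labels do not say how many immortalised lines or clones stand behind each group, nor whether its libraries come from different cultures or animals. The p-values therefore reflect no more than how far these libraries vary, possibly for technical reasons. Differences between the groups are therefore also differences between the lines sampled. Only levels after IL-4 were analysed here, with no cells free of it for comparison.

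Adgre1 encodes F4/80, the classical surface marker of mature mouse macrophages, and Adgre5 encodes its relative CD97. Both are adhesion G protein-coupled receptors, with long extracellular parts built to bind other cells or matrix. Ptprc encodes CD45, the tyrosine phosphatase that removes inhibitory phosphate from Src family kinases in all white blood cells, Cd48 encodes a lipid-anchored ligand of the SLAM receptor family, and Cd53 encodes a leukocyte tetraspanin. Inside the cell, Cd68 encodes a heavily glycosylated lysosomal membrane protein, Mpeg1 encodes perforin-2, a pore-forming protein that attacks engulfed bacteria, and Lyz1 and Lyz2 encode lysozymes, the enzymes that cut bacterial cell walls. Lyz2 is the gene whose promoter drives the myeloid Cre lines used widely in mice.

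The libraries held 20.7 to 22.3 M (mega) assigned fragments in WT and 19.1 to 26.4 M in the KO-labelled group, recovered from the FPKM. Tnfsf9 itself had means of 12.3 ± 2.10 (WT) and 10.9 ± 0.414 FPKM (KO-labelled; SD, n = 3), a log2 difference of -0.15 ± 0.11 (SE) that did not pass (limma adjusted p = 0.273). The deleted stretch of the gene is not stated in the labels, so its transcript is no check of the label. The term KO-labelled is used for this group. Ddx3y, a Y-linked gene, had 0.00309 ± 0.00535 FPKM (WT) and 10.8 ± 1.13 FPKM (KO-labelled), so the groups also differ in Y-linked transcript. Macrophage markers were present in both groups: Csf1r, the receptor of the macrophage growth factor, had 232 ± 1.22 and 134 ± 2.95 FPKM, and Spi1, which encodes the lineage factor PU.1, had 135 ± 1.79 and 137 ± 7.61 FPKM. Itgam, the integrin chain CD11b, was low in both (2.46 ± 0.324 and 2.75 ± 0.629 FPKM). Of its exon length 68.7% is shared on the same strand with Gm49368, which had 0 FPKM in every library. How fragments that fit both were counted is not stated, so the level of Itgam is uncertain. Mertk and Aif1 were near 0 in WT only, with 0.00720 ± 0.0125 and 0.293 ± 0.214 FPKM against 4.24 ± 0.154 and 25.6 ± 1.10 FPKM.

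The members differed between the groups in both directions. At the surface, Adgre1, Cd48 and Ptprc were higher in the KO-labelled libraries, by 22.7-fold, 24.9-fold and 1.97-fold of mean FPKM. Cd68, Mpeg1, Lyz1, Lyz2 and the surface tetraspanin gene Cd53 were lower, by 1.55-fold, 2.78-fold, 9.34-fold, 2.50-fold and 1.17-fold. Adgre5 was barely detected in either group. In the fit over all genes 3 of the 8 tested members were higher and 5 lower past an adjusted p of 0.05. Of all tested genes 60.8% passed that threshold, 30.6% higher and 30.2% lower, and the members were chosen from this contrast, so their counts carry no weight of their own. The members' median log2 difference was -0.43, against 0.01 over all tested genes. WT and KO-labelled ranges were separate for all 9 members, and they were not overlapping for 67.4% of tested genes. The genes together show no common direction. On the log2 scale the most changed, Adgre1 and Cd48, were higher, and the next in size, Mpeg1, Lyz1 and Lyz2, were lower.

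**Figure D1:**
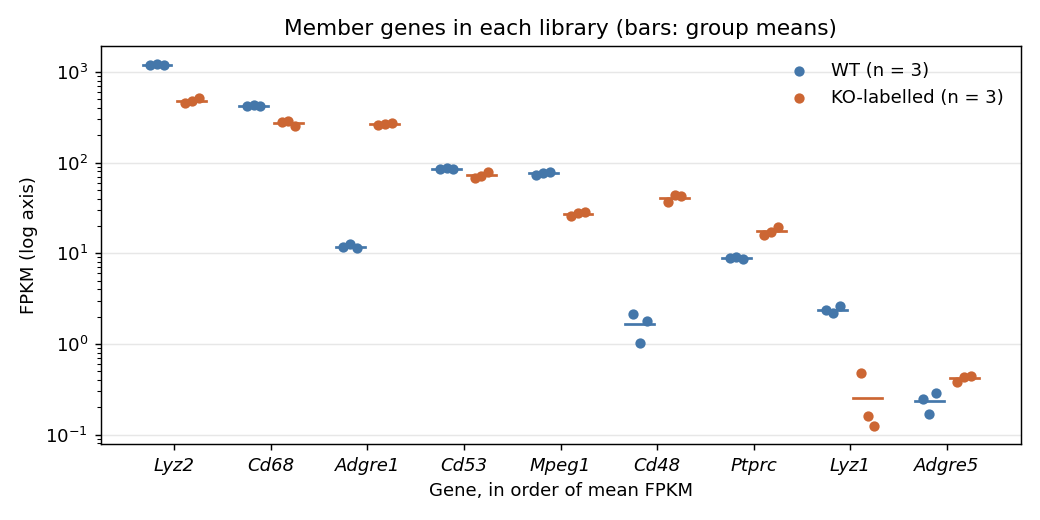
FPKM of the 9 genes (log axis) in each WT library (blue points) and KO-labelled library (orange points), with bars at the group means, genes in order of their mean over all libraries. Adgre1 and Cd48 are higher and Mpeg1, Lyz1, Lyz2 and Cd68 lower in every KO-labelled library than in every WT library.

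Adgre1 (F4/80, ENSMUSG00000004730) lies on the plus strand of chromosome 17 at 57358691 to 57483527 in mm10. Its level was 11.6, 12.5 and 11.3 FPKM in WT libraries 1 to 3 and 261, 269.7 and 273 FPKM in KO-labelled libraries 1 to 3. Every KO-labelled library was far above every WT library, and both groups were tight, with 11.8 ± 0.625 and 268 ± 6.07 FPKM (SD, n = 3). The log2 difference of FPKM + 1 was 4.39 ± 0.05 (SE), larger in size than that of 99.3% of tested genes. The values rest on 2463 fragments in WT and 56445 in the KO-labelled libraries. In rank by mean level the gene moved from 4275 in WT to 135 in the KO-labelled group, so that the best-known mouse macrophage marker was a moderately expressed gene in WT and among the most abundant in the KO-labelled group.

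Adgre5 (CD97, ENSMUSG00000002885), on the minus strand of chromosome 8 at 83723251 to 83741326, had 0.249, 0.167 and 0.287 FPKM in WT and 0.383, 0.433 and 0.445 FPKM in KO-labelled libraries. All 6 values are low, with 57 fragments over the WT and 102 over the KO-labelled libraries, and the ranges of the groups do not touch. The means were 0.234 ± 0.0614 and 0.420 ± 0.0327 FPKM (SD, n = 3), a 1.79-fold difference, and the gene was below the level for testing. Of its exon length 23.8% overlaps Ddx39, a helicase gene on the opposite strand with up to 55.8 FPKM. Without known strand in the counting, fragments of Ddx39 cannot be told apart from those of Adgre5.

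Ptprc (CD45, ENSMUSG00000026395), on the minus strand of chromosome 1 at 138062861 to 138175708, had 8.98, 9.08 and 8.75 FPKM in WT and 16.1, 17.4 and 19.4 FPKM in KO-labelled libraries. The WT libraries lie within a narrow band, and the lowest KO-labelled library is well above it. The means were 8.94 ± 0.168 and 17.6 ± 1.67 FPKM (SD, n = 3), with a log2 difference of 0.90 ± 0.07 (SE). The level understates the gene beside other members. The union of its annotated exons is 18313 bases, while its longest coding transcript is 5074 bases, and per that length the means would be 32.3 ± 0.607 and 63.6 ± 6.04. The ratio between groups is the same on either length. CD45 isoforms differ by alternative exons, which gene-level values do not resolve.

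Cd48 (ENSMUSG00000015355), on the plus strand of chromosome 1 at 171682009 to 171705258, had 2.17, 1.01 and 1.78 FPKM in WT and 36.6, 43.7 and 43.2 FPKM in KO-labelled libraries. It was scarce in every WT library and readily measured in every KO-labelled one. The WT mean of 1.65 ± 0.586 FPKM rests on 127 fragments and the KO-labelled mean of 41.1 ± 3.98 FPKM on 3152. The gene passed the filter on low values mainly through the KO-labelled group. The log2 difference was 4.01 ± 0.17 (SE), beyond that of 98.9% of tested genes, and the rank by level moved from 9701 to 1244. Leaving out 1 library at a time gave ratios of mean FPKM from 20.9 (without WT library 2) to 29.5 (without WT library 1).

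Cd53 (ENSMUSG00000040747), on the minus strand of chromosome 3 at 106759921 to 106790149, had 85.3, 86.1 and 83.9 FPKM in WT and 67.9, 71.6 and 78.3 FPKM in KO-labelled libraries. Every KO-labelled library was below every WT library, library 3 by the narrowest margin. The means were 85.1 ± 1.08 and 72.6 ± 5.25 FPKM (SD, n = 3), and the log2 difference of -0.23 ± 0.06 (SE) exceeded that of only 38.3% of tested genes. It was -0.14 after rescaling to TPM (a scale with the same total in every library) and -0.10 after quantile normalization. Under both it no longer passed the threshold (limma adjusted p of 0.113 and 0.193). Cd53 is the member nearest to equal levels in the groups.

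Cd68 (ENSMUSG00000018774), on the minus strand of chromosome 11 at 69664213 to 69666153, had 423, 436 and 419 FPKM in WT and 281, 289 and 255 FPKM in KO-labelled libraries. The gene was abundant in all 6 libraries, with every KO-labelled value below every WT value. The means were 426 ± 8.50 and 275 ± 17.8 FPKM (SD, n = 3), with a log2 difference of -0.63 ± 0.05 (SE), and the rank moved from 85 to 134. In the KO-labelled libraries the ranges of Cd68 and Adgre1 overlapped, whereas in WT the mean of Cd68 was far above that of Adgre1.

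Mpeg1 (perforin-2, ENSMUSG00000046805), on the plus strand of chromosome 19 at 12460779 to 12465283, had 73.8, 76.4 and 78.7 FPKM in WT and 26.0, 27.8 and 28.4 FPKM in KO-labelled libraries. Libraries within a group differed little and the groups were far apart. The means were 76.3 ± 2.45 and 27.4 ± 1.27 FPKM (SD, n = 3), with a log2 difference of -1.44 ± 0.05 (SE), larger in size than that of 91.6% of tested genes. Prf1, the perforin gene of cytotoxic lymphocytes and a structural relative, had 0 fragments in WT and 2 in the KO-labelled libraries.

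Lyz2 (ENSMUSG00000069516), on the minus strand of chromosome 10 at 117277331 to 117282321, was the most abundant member in both groups. It had 1202, 1221 and 1198 FPKM in WT and 452, 481 and 518 FPKM in KO-labelled libraries, which was 0.158% to 0.161% and 0.0595% to 0.0681% of assigned fragments. No KO-labelled library reached a level near the WT libraries, yet the gene stayed among the highest in both, with rank 18 in WT and 62 in the KO-labelled group. The means were 1207 ± 12.5 and 484 ± 32.8 FPKM (SD, n = 3), with a log2 difference of -1.32 ± 0.05 (SE).

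Lyz1 (ENSMUSG00000069515), 5.5 kb from Lyz2 on the same strand at 117287797 to 117292868, had 2.37, 2.18 and 2.60 FPKM in WT and 0.480, 0.161 and 0.124 FPKM in KO-labelled libraries. These come from 64, 57 and 73 fragments in WT and from 16, 4 and 3 in the KO-labelled libraries, so library 1 holds most of the 23 fragments of that group. The means were 2.38 ± 0.210 and 0.255 ± 0.196 FPKM (SD, n = 3), and the ratio of 9.34 became 16.7 without KO-labelled library 1. The log2 difference was -1.44 ± 0.14 (SE), and -3.29 with a pseudocount of 0.1 in place of 1. The gene passed the filter only through the WT libraries. In mice Lyz1 is known as the lysozyme of intestinal Paneth cells and Lyz2 as that of macrophages.

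The lysozyme genes are near-identical copies, and how the counting divided fragments that fit both is not given in the sources used here. Their coding sequences have 447 bases each and differ at 22, an identity of 95.08%, and their whole transcripts of 1263 and 1316 bases have an identity of 91.95%. Of all stretches of 50 bases in the Lyz1 transcript 16.1% occur unchanged in Lyz2, of those of 100 bases 2.06%, and of those of 150 bases none. Bases 37 to 156 of the coding sequences, counted from their first base, are shown from the GENCODE M21 transcripts because they hold 14 of the 22 differences, which are in capitals.
Lyz1: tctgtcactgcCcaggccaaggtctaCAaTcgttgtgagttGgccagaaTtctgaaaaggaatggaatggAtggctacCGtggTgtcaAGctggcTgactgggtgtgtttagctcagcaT
Lyz2: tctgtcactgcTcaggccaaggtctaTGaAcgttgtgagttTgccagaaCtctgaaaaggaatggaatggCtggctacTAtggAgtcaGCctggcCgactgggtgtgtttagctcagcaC
The longest run of the coding sequence without a difference is 118 bases. Lyz1 had 1.89, 1.71 and 2.08 fragments per 1000 fragments of Lyz2 in WT and 1.02, 0.321 and 0.230 in KO-labelled libraries. The groups did not overlap in this ratio, with means of 1.89 ± 0.185 and 0.523 ± 0.432 (SD, n = 3), and KO-labelled library 1 stands apart from the other KO-labelled libraries. Whether the few Lyz1 fragments came from Lyz2 transcripts was not tested. As 1 gene the pair had 1209 ± 12.3 and 484 ± 32.6 FPKM, 2.50-fold lower in the KO-labelled group, the same ratio as Lyz2 alone.

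**Figure D2:**
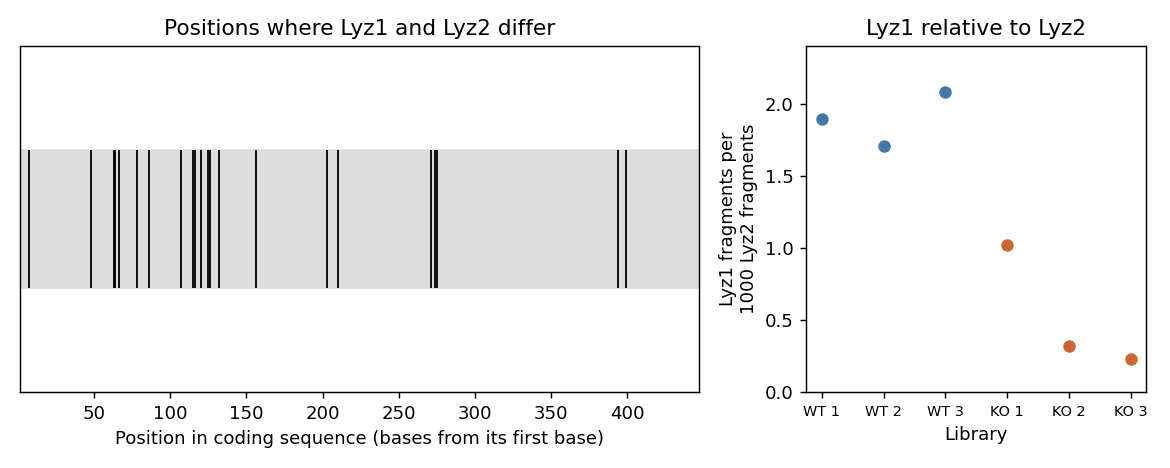
Left, the 22 positions (black lines) at which the coding sequences of Lyz1 and Lyz2 differ, by base from the start of the coding sequence. Right, Lyz1 fragments per 1000 Lyz2 fragments in each library (blue WT, orange KO-labelled), where the WT libraries lie between 1.71 and 2.08 and the KO-labelled ones between 0.230 and 1.02.

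The copies are alike before their starts as well. RefSeq promoter sequences (GRCm38.p6) had an identity of 79.4% over the 250 bases before the start, 88.7% over 150, 92% over 100 and 100% over the last 50. The 100 bases before each start are shown because these near-equal sequences stand before genes whose levels are so far apart, with their 8 differences in capitals. That of Lyz1 is chr10:117292869-117292968 and that of Lyz2 chr10:117282273-117282372, both on the minus strand and read 5′ to 3′. The starts are those of RefSeq. In GENCODE M21 the Lyz2 gene reaches 117282321, so nearly all of the last 50 bases of its stretch lie within the annotated gene. The Lyz1 gene reaches 117292868, so its stretch lies outside the gene.
Lyz1 promoter: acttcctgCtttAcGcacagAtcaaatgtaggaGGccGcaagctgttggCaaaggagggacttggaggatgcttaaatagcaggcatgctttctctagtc
Lyz2 promoter: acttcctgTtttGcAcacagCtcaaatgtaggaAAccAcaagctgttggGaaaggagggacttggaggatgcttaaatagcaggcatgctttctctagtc
Each begins with acttcc, the reverse complement of GGAAGT, a core bound by ETS family factors such as PU.1. That motif, searched on both strands from 250 bases before to 50 bases after each start, occurs in 23.8% of the 32851 mouse promoter sequences. RefSeq entries were matched for 7 of the 9 members, and 6 of these genes have the motif: Lyz1, Lyz2, Ptprc, Cd48, Cd53 and Cd68, but not Mpeg1. In Cd48, Cd53 and Cd68 the match lies 6, 7 and 12 bases after the start. Lyz1 and Lyz2 are copies with the match at the same place. The 7 genes have 8 promoter sequences, the extra being a further start of Ptprc. The motif was searched with the members known, and a match is a description of letters, not a binding site. For Ptprc it occurs on either strand within the 150 bases before one of its RefSeq starts, chr1:138175306-138175455 on the minus strand, shown with both matches in capitals. In GENCODE M21 the Ptprc gene reaches 138175708, so this whole stretch lies within the annotated gene.
Ptprc promoter: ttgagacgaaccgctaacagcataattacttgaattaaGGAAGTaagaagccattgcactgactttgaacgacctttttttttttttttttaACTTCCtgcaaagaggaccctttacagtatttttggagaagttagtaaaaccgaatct
The motif is shared by members that were higher (Ptprc, Cd48) and lower (Lyz1, Lyz2, Cd68, Cd53) in the KO-labelled libraries. Whether the motif or PU.1 bears on these differences was not tested. Spi1 did not pass between the groups, with a log2 difference of 0.02 ± 0.05 (SE), a 95% interval from -0.10 to 0.13 and a limma adjusted p of 0.763. After quantile normalization it was higher by 0.18 with an adjusted p of 0.0166.

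The order of the members by level differed between the groups. In WT it ran from Lyz2 over Cd68, Cd53, Mpeg1, Adgre1, Ptprc, Lyz1 and Cd48 to Adgre5, and no neighbours in that order had overlapping ranges. In the KO-labelled group it ran from Lyz2 over Cd68, Adgre1, Cd53, Cd48, Mpeg1, Ptprc and Adgre5 to Lyz1, where the ranges of Cd68 and Adgre1 and those of Adgre5 and Lyz1 overlapped. Per length of the exon union, these levels place Adgre1 and Cd48 above Mpeg1 in the KO-labelled libraries and below it in WT. The place of Ptprc depends on the length used: per its longest coding transcript its means of 32.3 and 63.6 lie above Adgre1 in WT and above Cd48 and Mpeg1 in the KO-labelled group. Among the KO-labelled libraries, library 1 was the lowest for 7 of the 9 members, a place it held for 36% of tested genes, and library 3 the highest for 6, a place it held for 39.4%.

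**Figure D3:**
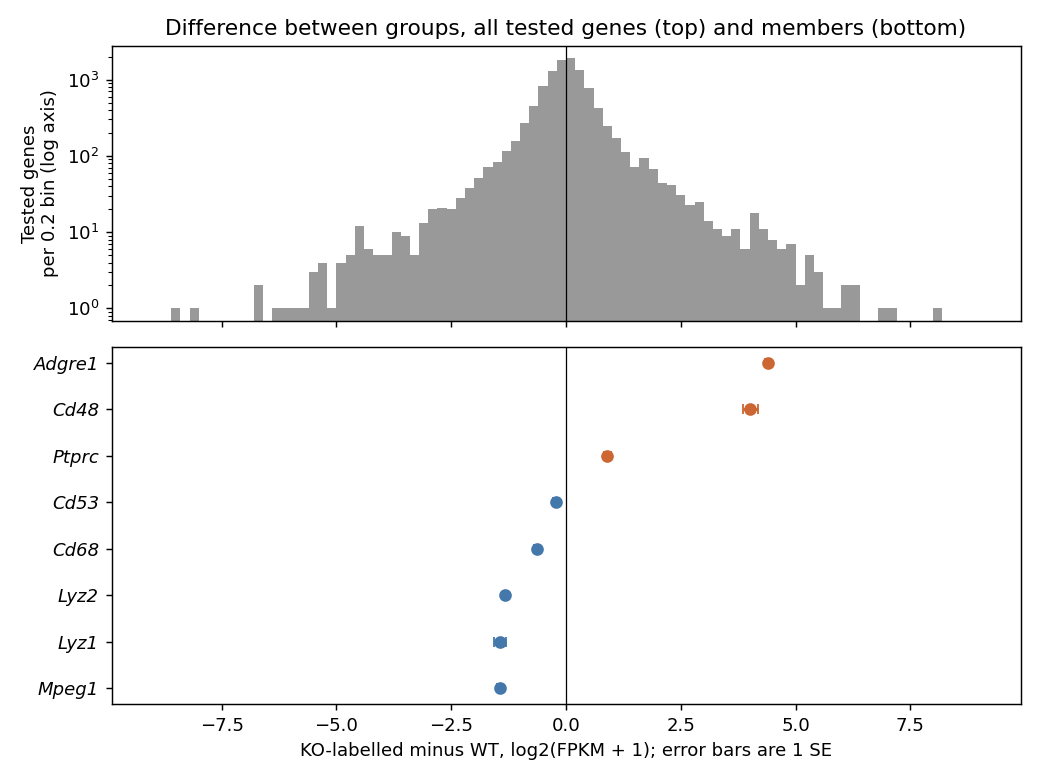
Top, the number of tested genes (log axis) by log2 difference of FPKM + 1 between KO-labelled and WT libraries. Bottom, the 8 tested members on the same axis with 1 SE, where Adgre1 (4.39) and Cd48 (4.01) lie far to the right, Ptprc (0.90) to the right, Cd53 (-0.23) near 0 and Mpeg1, Lyz1 and Lyz2 between -1.44 and -1.32.

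The genes most like each member over the 6 libraries were found by the root mean square difference of centred log2 values among 4601 genes averaging 10 FPKM or more. For Adgre1 they were Flt1, a VEGF receptor gene, with means of 1.06 ± 0.0330 (WT) and 42.8 ± 1.24 FPKM (KO-labelled), and C3, the central complement component, with 9.74 ± 0.249 and 215 ± 2.56 FPKM. Since genes were picked here for their likeness to a member, their own difference between the groups is a description. For Mpeg1 they were the transcription factor gene Ets2 (28.7 ± 0.828 and 9.77 ± 0.483 FPKM) and the inducible nitric oxide synthase gene Nos2 (47.8 ± 1.12 and 17.1 ± 0.363 FPKM). For Lyz2 they were the membrane protein gene Stom (89.97 ± 1.49 and 34.0 ± 2.09 FPKM) and the lysosomal thioesterase gene Ppt1 (38.5 ± 1.52 and 14.1 ± 0.855 FPKM), and for Lyz1 the adaptor gene Dok2 and Rpp25l. For Cd68 they were the cytokine gene Mif and the phosphofructokinase gene Pfkp, for Ptprc the translation factor gene Eif4g2 and the glycerol kinase gene Gk, and for Cd53 the cohesin release gene Wapl and the squalene synthase gene Fdft1. For Cd48 they were Lacc1 (1.10 ± 0.0662 and 33.1 ± 1.89 FPKM) and the nucleosome-binding protein gene Hmgn2 (1.80 ± 0.151 and 49.7 ± 4.85 FPKM). The likeness was closest for Cd53 with Wapl at 0.0177 and loosest for Cd48 with Hmgn2 at 0.2163. With 6 libraries in 2 groups this likeness is mostly that of the size of the group difference. Fdft1 has a near-identical copy, Gm6781, and 18.3% of its exon length overlaps Ctsb on the opposite strand.

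Adgre1 and Tnfsf9 lie 250.9 kb apart on chromosome 17, with C3 between them. Of 22 tested genes within 500 kb of Tnfsf9, Adgre1 included, 6 were higher, 4 lower and 12 did not pass (median log2 difference -0.00). Over all tested genes 30.6% were higher and 30.2% lower. C3 and Adgre1 lay far above the rest of this window. Trip10, an adaptor gene of membrane trafficking, rose from 6.97 ± 0.508 to 14.3 ± 0.365 FPKM, Vav1, a leukocyte exchange factor gene, rose from 35.1 ± 1.20 to 39.3 ± 2.11 FPKM, and Gpr108, between C3 and Trip10, stayed below the threshold with 13.5 ± 0.688 and 13.4 ± 1.65 FPKM (limma adjusted p = 0.902). Gm11110, which overlaps 14.9% of the exon length of Tnfsf9 on the opposite strand, fell from 3.72 ± 0.761 to 0.0235 ± 0.0408 FPKM (limma adjusted p = 1.19e-05). The window was chosen after the values of C3 and Adgre1 had been seen. Genotype and the genomic region that comes with it cannot be told apart in this design.

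**Figure D4:**
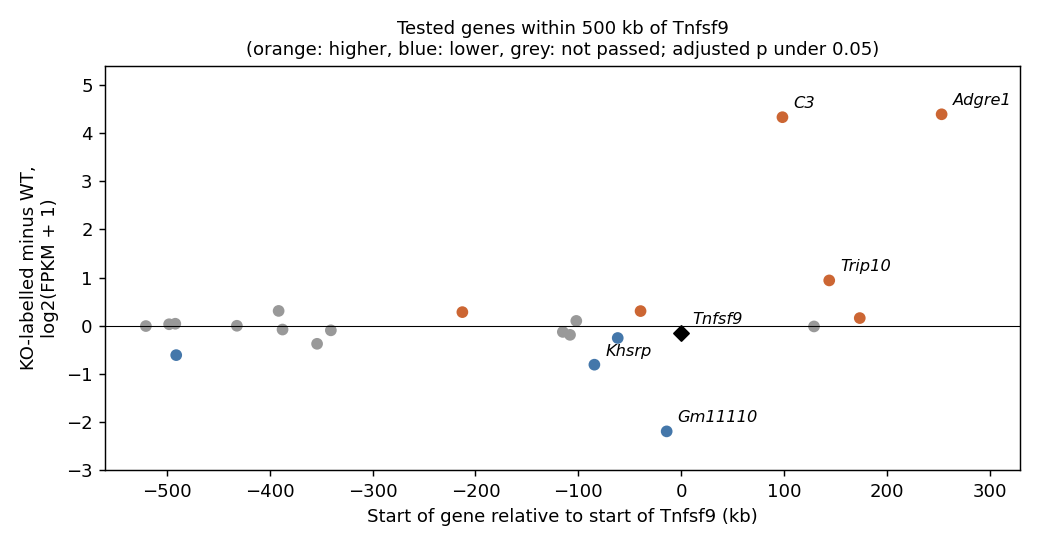
Log2 difference of FPKM + 1 between KO-labelled and WT libraries for the 22 tested genes within 500 kb of Tnfsf9 (black diamond), by distance of the gene starts in kb. C3 (4.33) and Adgre1 (4.39) lie far above the other genes of the window, most of which are near 0.

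Windows of the same size around the other members gave other counts. They are to be read beside the 60.8% of all tested genes that passed, 30.6% higher and 30.2% lower. Around Cd53, 3 of 5 tested genes were lower and 2 did not pass, around Ptprc the only tested gene was higher, around Cd68 18 of 37 were higher and 5 lower, and around Adgre5 3 of 18 were higher and 6 lower. Within 500 kb of Cd48, in the SLAM gene cluster, 6 of 21 tested genes were higher, 9 lower and 6 did not pass. Ly9 (74.6 kb away) and Cd84 (134.4 kb away), both of the SLAM family, were among those that rose. Dtx4, 1.1 kb from Mpeg1, fell from 15.7 ± 0.417 to 2.75 ± 0.467 FPKM (limma adjusted p = 2.36e-06), while Lpxn, 330.9 kb away, rose from 75.6 ± 5.17 to 145 ± 5.36 FPKM. Around Lyz1 and Lyz2, 1 of 10 tested genes was higher, 6 were lower, the other lysozyme gene included, and 3 did not pass.

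The families and partners of the members were followed in 9 lists. Together they held 184 genes, of which 108 were tested, with 60 that rose, 26 that fell and 22 that did not pass. Their median log2 difference was 0.28, against 0.01 over all tested genes. Of all tested genes 30.6% were higher and 30.2% lower, and the counts of each list below are to be read beside these shares. All adjusted p-values come from limma with Benjamini-Hochberg adjustment over all tested genes. The lists were written with earlier results of these data known and are described by their counts. A gene near 0 in a whole group enters these counts only through the other group, and its direction then follows from the filter.

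Of 28 other adhesion G protein-coupled receptor genes 3 were tested: Adgrl1, Adgrl2 and Adgra3. Adgrl2, a latrophilin gene, had no fragment in WT and reached 3.38 ± 0.142 FPKM in the KO-labelled group, which is at least 343-fold higher against a floor of 3 fragments per library. Adgra3 likewise went from no fragment to 2.70 ± 0.166 FPKM, which is at least 157-fold higher. Both passed the filter on low values only through the KO-labelled group, so that they could be called in no other direction. Adgrl1 rose from 3.85 ± 0.543 to 5.06 ± 0.521 FPKM (adjusted p = 0.0348). Of the 28, 12 were at 0 in all libraries. Celsr1, below the level for testing, had 0.327 ± 0.0252 FPKM in WT and 0.0138 ± 0.0138 in the KO-labelled group (231 and 10 fragments), and with no filter on low values 1 gene of the list was lower. Adgre4, a relative of Adgre1 that lies 1505 kb from it, had 0 fragments in WT and 2 in KO-labelled libraries.

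The binding partners of CD97 were mostly integrin genes here. Cd55, its first known ligand, and Thy1 had 0 fragments in all 6 libraries. Of 7 listed partners 3 were tested. Itgb1, the integrin beta1 chain, rose from 43.9 ± 1.58 to 116 ± 3.07 FPKM (adjusted p = 5.00e-07), and the alpha chain genes Itgav and Itga5 fell from 10.4 ± 0.222 to 7.39 ± 0.361 FPKM and from 26.6 ± 0.421 to 20.2 ± 0.259 FPKM.

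Most genes of the SLAM family, to which Cd48 belongs, were too low to test. Of 12 listed genes 4 were tested and all 4 rose: Cd84, from 0.107 ± 0.0190 to 8.28 ± 0.660 FPKM (77.4-fold, adjusted p = 2.60e-07), Ly9, from 6.28 ± 0.635 to 23.7 ± 1.33 FPKM, the adaptor gene Sh2d1b1 (EAT-2), from 0.0361 ± 0.0312 to 2.22 ± 0.399 FPKM, and Slamf9, from 1.04 ± 0.374 to 1.94 ± 0.499 FPKM (adjusted p = 0.0355). Cd84 and Sh2d1b1 passed the filter on low values only through the KO-labelled group, which fixes their direction. Without KO-labelled library 1 or library 3, 2 of 3 tested genes passed. Slamf8, just below the level for testing, had 1.01 ± 0.417 FPKM in WT and 0.374 ± 0.0406 in the KO-labelled group. The receptors of CD48 were scarce. Cd244a, encoding the receptor 2B4, had 0 fragments in WT and 58 in the KO-labelled libraries, at least 6.47-fold higher, and Cd2 had 0 and 7.

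Other tetraspanin genes moved both ways. Of 30 listed 14 were tested, with 4 that rose, 7 that fell, 3 that did not pass and a median of -0.20. Cd63, the tetraspanin of late endosomes and lysosomes, fell from 57.0 ± 0.565 to 28.0 ± 1.96 FPKM (adjusted p = 6.92e-06), and Cd9 fell from 135 ± 3.02 to 86.3 ± 1.10 FPKM. Cd37, a leukocyte tetraspanin gene like Cd53, fell from 18.02 ± 1.24 to 8.98 ± 0.535 FPKM. Cd81 fell from 17.6 ± 1.45 to 14.0 ± 1.43 FPKM (adjusted p = 0.0187), but did not pass after rescaling to TPM (adjusted p = 0.0750), nor without WT library 3 or KO-labelled library 1 or 2 (adjusted p of 0.0620, 0.0533 and 0.0578). Cd151 rose from 11.8 ± 1.01 to 18.6 ± 0.815 FPKM. Tspan32, a leukocyte tetraspanin gene, had no fragment in WT and 4.30 ± 0.388 FPKM in the KO-labelled group, which is at least 192-fold higher.

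Lysosomal membrane genes did not follow Cd68. Of 14 listed 11 were tested, with 7 that rose, 1 that fell, 3 that did not pass and a median of 0.29. Lamp1 and Lamp2, the major glycoproteins of that membrane and relatives of Cd68, both rose (adjusted p of 3.05e-05 and 6.18e-06), Lamp1 from 285 ± 2.81 to 395 ± 7.46 FPKM and Lamp2 from 25.6 ± 0.741 to 56.8 ± 4.15 FPKM. Npc1, the cholesterol exporter, rose from 6.07 ± 0.102 to 10.1 ± 0.303 FPKM. Laptm5, restricted to blood cells, fell from 132 ± 1.91 to 107 ± 8.46 FPKM, a call that was lost after quantile normalization.

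Antimicrobial genes beside Mpeg1 and the lysozymes moved both ways, with 5 higher, 4 lower and 2 not passing of 11 tested (23 listed). Lcn2, which withholds iron from bacteria, rose from 0.407 ± 0.193 to 13.1 ± 0.438 FPKM (32.1-fold, adjusted p = 6.12e-07), and the protease inhibitor gene Slpi rose from 0.782 ± 0.462 to 6.51 ± 0.942 FPKM. Within the phagocyte oxidase, the catalytic chain gene Cybb rose from 53.1 ± 2.04 to 85.3 ± 6.26 FPKM. The soluble subunit genes Ncf1 and Ncf4 fell from 103 ± 2.22 to 61.5 ± 1.96 FPKM and from 70.9 ± 2.30 to 39.7 ± 1.95 FPKM, and Rac2, the small GTPase of the complex, fell from 185 ± 3.21 to 87.9 ± 1.62 FPKM. Cyba, the partner chain of Cybb, had 260 ± 9.50 and 253 ± 10.0 FPKM and did not pass. The other lysozyme family genes had no fragments, except Lyzl4 with 4 in WT and 3 in the KO-labelled libraries.

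Around CD45, more genes of its signalling neighbourhood rose than fell. Of 27 listed 23 were tested, with 14 that rose, 5 that fell, 4 that did not pass and a median of 0.37. Among the Src family kinases that CD45 acts on, Fyn rose from 9.51 ± 0.607 to 27.6 ± 1.85 FPKM, whereas Fgr fell from 4.60 ± 0.0965 to 0.624 ± 0.174 FPKM. Lyn fell from 32.7 ± 1.38 to 27.2 ± 2.32 FPKM (adjusted p = 0.0143), but it has a near-identical copy, Gm11787, and did not pass after rescaling to TPM (adjusted p = 0.0939), nor without WT library 1 or 3 or KO-labelled library 2 (adjusted p of up to 0.0516). With each of these 3 libraries left out in turn, or after rescaling to TPM, 3 genes of the list fell. Csk, the kinase that opposes CD45, rose from 51.5 ± 1.16 to 71.1 ± 8.18 FPKM. Of the phosphatases, Ptpn22 fell from 15.2 ± 0.666 to 2.28 ± 0.445 FPKM (adjusted p = 2.76e-06), and Ptpn6, encoding SHP-1, had 172 ± 0.650 and 161 ± 8.40 FPKM and did not pass (adjusted p = 0.138, and 0.0339 without KO-labelled library 1). Other phosphatase genes of the list moved both ways. Ptprj rose from 13.5 ± 0.812 to 21.5 ± 1.47 FPKM, Ptpro, Ptpre and Ptpn11 rose as well, Ptpra fell and Ptpn12 did not pass. Pirb, an inhibitory receptor gene with 6 near-identical copies, rose from 0.209 ± 0.124 to 6.68 ± 0.138 FPKM. Ptprcap, the CD45-associated protein gene, had 0.237 ± 0.205 and 0.232 ± 0.248 FPKM and was not tested. Its exon length overlaps Rps6kb2 on the opposite strand by 76% and Coro1b on the same strand by 26.8%, so its level is uncertain.

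**Figure D5:**
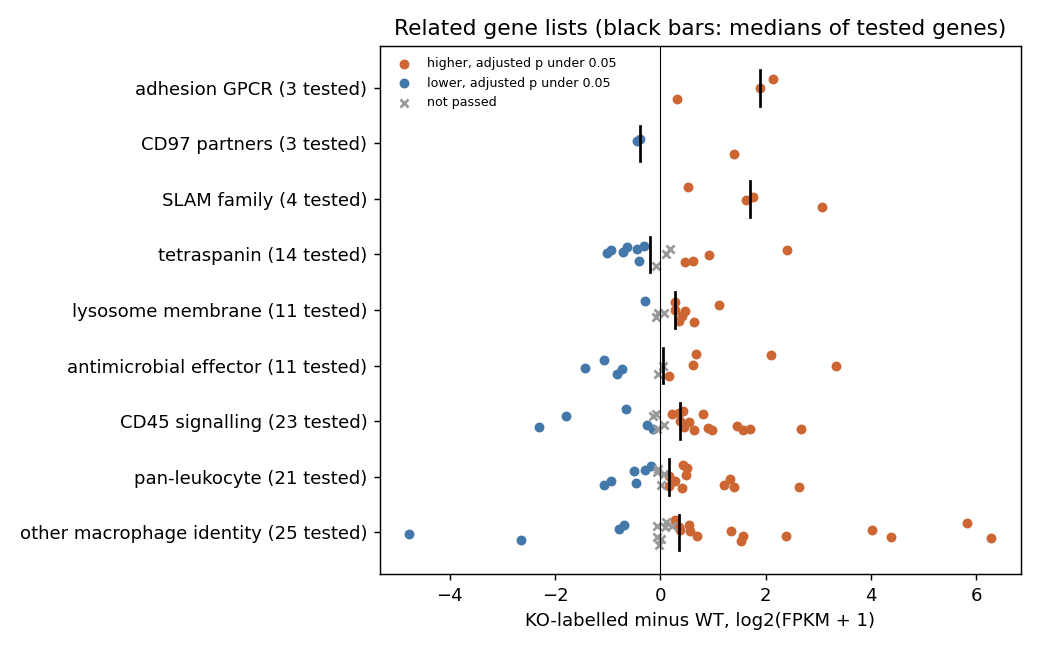
Log2 difference of FPKM + 1 between KO-labelled and WT libraries for the tested genes of the 9 related lists, with genes that passed in orange (higher) and blue (lower), those that did not as grey crosses, and black bars at the medians. The tetraspanin median (-0.20) lies below 0 and the medians of the SLAM family (1.70) and of lysosome membrane genes (0.29) above it.

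Other genes shared by all white blood cells, like Ptprc, were more often higher than lower: of 21 tested, 11 rose, 6 fell and 4 stayed below the threshold (median 0.16). Gmfg rose from 0.866 ± 0.319 to 10.5 ± 2.15 FPKM and Selplg, the selectin ligand, from 4.22 ± 0.131 to 12.8 ± 1.08 FPKM. Itgb2, the common leukocyte integrin chain, fell from 50.7 ± 0.666 to 36.6 ± 0.654 FPKM. Arhgdib, the most abundant of the list, had 326 ± 10.2 and 327 ± 12.5 FPKM.

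Of 25 tested further macrophage genes 14 rose, 4 fell and 7 stayed below the threshold (median 0.35). The transcription factor gene Maf rose from 0.00195 ± 0.00338 to 15.2 ± 0.392 FPKM. The IgG receptor gene Fcgr3 rose from 0.409 ± 0.344 to 76.7 ± 3.14 FPKM, with the caveat of a 509-base stretch at 96.46% identity to Fcgr2b. Siglec1, a sialic acid receptor of tissue macrophages, rose from 1.01 ± 0.270 to 4.77 ± 0.366 FPKM. In the direction of the granule genes, Csf1r fell 1.73-fold, Trem2 fell from 35.7 ± 1.70 to 21.7 ± 2.43 FPKM, and the lipopolysaccharide co-receptor gene Cd14 fell from 292 ± 5.68 to 45.8 ± 2.64 FPKM. Cx3cr1, the fractalkine receptor gene, fell from 26.3 ± 1.63 FPKM in WT to no fragment in any KO-labelled library, which is at least 840-fold lower. The lysosomal proteases split from the lysozymes: Ctsb rose from 276 ± 4.23 to 357 ± 16.4 FPKM and Ctss from 237 ± 7.72 to 286 ± 16.0 FPKM, and Ctsd had 198 ± 3.32 and 190 ± 21.5 FPKM and did not pass.

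In bulk RNA, fewer cells of a type and less RNA per cell cannot be told apart, so markers of other cells were read beside these results. The summed level of 10 T cell markers was 1.76 to 2.16 FPKM in WT and 20.6 to 23.8 FPKM in KO-labelled libraries, nearly all of the latter from Cd28 (21.5 ± 1.76 FPKM), while Cd3e, Cd3g, Cd8a and Trac were at 0 in all 6. Lck, the other of the 2 tested T cell markers, went the other way, from 1.79 ± 0.194 FPKM in WT to 0.771 ± 0.176 FPKM in the KO-labelled group. The sum of 12 neutrophil markers was 6.80 to 8.94 and 59.0 to 59.96 FPKM, mostly Csf3r (43.9 ± 0.542 FPKM in the KO-labelled group), with Lcn2 at 13.1 ± 0.438 FPKM. Of the other neutrophil markers Cxcr2, Mmp8 and S100a8 had 0, 0 and 1 fragments in WT and 126, 58 and 33 in the KO-labelled libraries, Mmp9 fell from 4.60 ± 0.383 to 0.524 ± 0.212 FPKM, and Ly6g, S100a9, Ngp and Retnlg were at 0 in all 6. The sum of 10 dendritic cell markers was 0.302 to 0.784 and 24.2 to 26.2 FPKM, mostly Batf3, with Clec9a, Siglech and Ccr7 at 0 and Flt3 at 0 and 8 fragments. That of 10 erythroid and megakaryocyte markers was 0.0192 to 0.424 and 15.9 to 17.8 FPKM, mostly Pf4, with the globin genes at 0. B cell, NK cell, mast cell and fibroblast sums stayed at or below 1.85 FPKM in every library, and that of progenitor markers at or below 3.17 FPKM. Osteoclast markers, a fate open to macrophage precursors, summed to 170 to 179 FPKM in WT and 92.8 to 97.7 FPKM in KO-labelled libraries. Of 7 tested osteoclast markers 6 fell, among them Acp5 from 50.8 ± 0.745 to 2.79 ± 0.260 FPKM, and Ctsk rose. Over all tested genes 30.2% were lower and 30.6% higher. The part of these markers in the lower level of the granule genes was not tested.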

How the data were processed

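Poly(A)-selected RNA of 6 libraries, 3 labelled WT and 3 labelled 4-1BBL KO, was measured as FPKM per Ensembl gene, 1 deposited table per library. Per the submitters' processing notes, the authors used HISAT2 2.0.5, featureCounts 1.5.0-p3 and mm10. Annotation release, strand setting and the handling of multiply mapping reads are not stated in the sources used here. The members and gene lists were chosen with earlier results of these data known.

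Symbols, positions and exon lengths came from GENCODE M21 (54495 of 54532 identifiers matched). FPKM times exon length gave whole fragments within 0.1 for 97.85% to 98.04% of values up to 200 fragments, against 20% by chance, for 54213 genes. Recovered fragments served for depth, for floors of 3 fragments per library, which cover counting error only, and for limma voom as an alternative, which called 3343 genes higher and 3461 lower. Genes averaging 1 FPKM or more were tested by limma 3.58.1 (R 4.3.3, trend option) on log2(FPKM + 1), KO-labelled minus WT, with Benjamini-Hochberg adjustment over 10843 genes. That scale understates the change of low genes, and folds are ratios of mean FPKM. The procedure was also run on data simulated around the WT means, with far fewer changed genes than were called here. That run is therefore no check of the calls in these libraries. No libraries held identical values.

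Genes named are the members, in each related list the 2 tested genes with the largest change past an adjusted p of 0.05, a short set named whatever its values, and for each member the 2 genes most like it in pattern. A few genes that this rule takes are left out of the text. Others named (among them Ddx3y, Mertk, Aif1, Itga5, Adgrl1, Slamf9, Sh2d1b1, Cd37, Cd151, Laptm5, Cybb, Ncf1, Ncf4, Rac2, Cyba, Fyn, Fgr, Itgb2, Arhgdib, Maf, Siglec1, Trem2, Cd14, Cx3cr1, Ctsb, Ctss, Ctsd, markers of other cells and the neighbours of members) were chosen after their values were seen. Near-identical copies (95% identity or more along 80% or more of the shorter of the transcripts) were found with BLAST+ 2.17.0+. Alternatives changed the pseudocount, filter, scaling, replicate block and unit, and left out each library in turn.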

Additional observations from a re-analysis of the deposited data

How the results depend on the processing

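The counts over all genes, the 8 members past the threshold, and the counts over the related lists pooled (60 higher, 26 lower) stayed within 1.5 times their main values under every alternative run. With a pseudocount of 0.1, other filters, other scalings, the replicate block and voom, 2340 to 3969 genes were higher and 2370 to 3512 lower, against 3321 and 3273. Leaving out each library in turn gave 2890 to 3160 and 2825 to 3248. Counts of single lists moved more: at a mean of at least 5 FPKM the higher genes went from 4 to 2 (tetraspanin), from 4 to 1 (SLAM family) and from 3 to 0 (adhesion receptors), and with no filter from 1 to 3 (CD97 partners). No direction was reversed. Of the members, Adgre1 ranged from 4.36 to 4.56 in log2 difference, Cd48 from 3.83 to 4.65, Ptprc from 0.83 to 1.04, Cd68 from -0.67 to -0.48, Mpeg1 from -1.49 to -1.37, Lyz2 from -1.37 to -1.08, Lyz1 from -3.29 to -1.37 and Cd53 from -0.28 to -0.10. Rescaling to TPM moved the median of all genes to 0.096, from 0.01. Lyz1 is below the filter at a mean of at least 5 FPKM.

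The replicate numbers of the labels are not stated to mark a shared animal, batch or day. Deviations of same-numbered libraries from their group means correlated at -0.034, 0.047 and -0.032, and 2 of the 3 WT libraries correlated better with another number. With the replicate block 3119 genes were higher and 3075 lower, and the count of members past the threshold was 8.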
